A study of Homo sapiens with 6 samples.

Results

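The keratin genes were examined in SW480 cells, an established human colorectal adenocarcinoma line, that overexpressed either POU5F1B or the green fluorescent protein GFP. Members were the protein-coding genes whose symbol is KRT followed by a number, and 55 of the 63677 identifiers counted met this rule. Keratin-associated proteins (KRTAP, KRTCAP) and pseudogenes were left out. All cells carried a lentiviral vector with a doxycycline-inducible promoter that encoded GFP or HA-tagged POU5F1B, had been selected with puromycin, and received 1 μg/mL doxycycline for 72 h. Each group had 3 libraries of polyadenylated RNA, with 10767947 to 12787637 counts per library. No label states that the replicates came from separate cultures, so the p-values measure the spread between these samples, which may be technical.

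Keratins are the intermediate filament proteins of epithelial cells. A type I (acidic) and a type II (basic) keratin pair to form the filament, so epithelia are usually described by their pairs. KRT8 with KRT18 is the pair of simple epithelia such as the intestinal lining, where KRT19 and KRT20 are also made. KRT5 with KRT14 marks the basal layer of stratified epithelia, KRT1 with KRT10 the layers above it in skin, and KRT4 with KRT13 those of moist mucosa. Further members form the hair shaft (KRT31 to KRT40 and KRT81 to KRT86) and the inner root sheath of the follicle (KRT25 to KRT28 and KRT71 to KRT75, with KRT75 in the companion layer beside it).

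The type II genes form a cluster on chromosome 12 with 26 members, where the type I gene KRT18 also lies. The other 27 type I genes and the unclassified KRT222 lie on chromosome 17. Cluster members arose by duplication, and some remain so alike that short reads cannot always be assigned to them. The coding sequences of KRT81 and KRT86, the hair shaft keratins with the most counts here, were 90.1% identical, and the longest identical run within an exon was 309 bases.

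Because only uniquely mapped reads were counted, reads from such stretches could be lost. Of all 100-base windows of its transcript, KRT81 shared 30.3% with another gene, KRT86 32.0%, KRT18 18.5%, KRT6A 18.2% and KRT8 7.12%. KRT19 shared none. The windows of KRT18 were shared with KRT8, whose annotated exons overlap those of KRT18 by 525 bases on the opposite strand. The strand setting of the counting was not stated, so reads from this overlap cannot be told apart here. KRT7 shared 8.32% of its windows with its antisense gene KRT7-AS. KRT13 shared 14.6% with 1 unnamed gene, and the strand of that match was not recorded. Reads assigned to KRT8 pseudogenes came to between 0.608 and 1.2% of the KRT8 count, and those assigned to KRT18 pseudogenes to at most 0.167% of the KRT18 count.

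POU5F1B itself was read first, to check the labels. Its counts were 6, 5 and 1 in GFP replicates 1, 2 and 3 and 15027, 11393 and 1458 in POU5F1B replicates 1, 2 and 3. The transcript was high in the libraries labelled with it, but far lower in replicate 3 than in the other two. The replicate 3 libraries stood apart over all genes as well. The coefficient of variation between GFP replicate 3 and GFP replicates 1 and 2 was 44.3% and 40.9%, against 8.03% for the GFP pair of replicates 1 and 2 and 9.84% for the same pair of POU5F1B cells. POU5F1B replicate 3 differed from its replicates 1 and 2 by 21.1% and 24.1%. The keratin results are therefore given with all 6 libraries and, where the call differed, with replicates 1 and 2 only.

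Most keratin genes were at or near the detection limit. Of the 55 members, 8 had no count in any library (KRT24, KRT25, KRT26, KRT27, KRT28, KRT35, KRT76 and KRT222), 24 had counts but fell below the filter on low counts, and 23 were tested. A count of 0 allows up to 3 counts, or 0.228 to 0.278 CPM (counts scaled to libraries of equal size) in a given library, counting error only. Between 33 and 40 members had a count in a given library. All 6 simple epithelial members passed the filter. So did 9 of 22 stratified epithelial members, 5 of 17 hair shaft members and 3 of 9 inner root sheath members. The 4 type I inner root sheath keratins were all at 0, while 3 of the 5 type II ones were tested.

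The simple epithelial pair led the levels. To compare genes, CPM was divided by the length of the canonical transcript in kilobases. On this scale KRT18 reached 2060 to 2800 CPM per kb and KRT8 1676 to 2374, which ranked them 13th and 16th among the tested genes. KRT18 was above KRT8 in 6 of 6 libraries, with a KRT8 to KRT18 ratio of 0.823 ± 0.036 in GFP cells and 0.780 ± 0.059 in POU5F1B cells (SD, n = 3). KRT5, the basal type II keratin, came next at 527.3 to 1101 CPM per kb and ranked 77th. These 3 genes made up 83.42 to 89.97% of all keratin CPM. KRT19, at 215 to 425 CPM per kb, was followed by KRT23, a type I keratin grouped here with the simple epithelial ones, at 137.2 to 224.7.

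**Figure D1:**
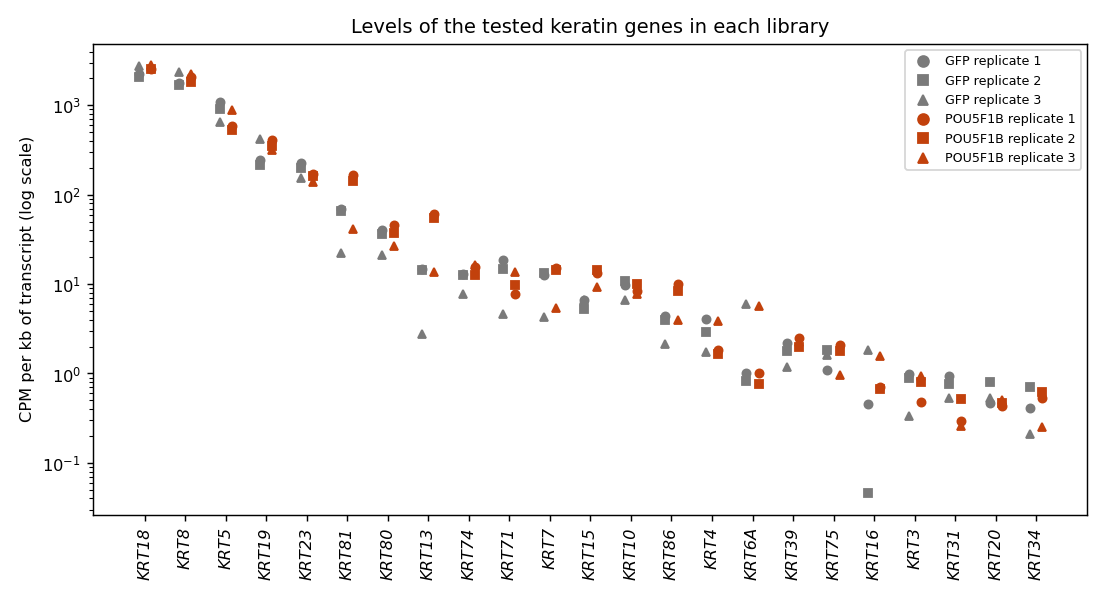
Level of each tested keratin gene in each of the 6 libraries, as CPM per kilobase of canonical transcript on a log axis. KRT18, KRT8, KRT5, KRT19 and KRT23 each lay above the next gene in order in 6 of 6 libraries, whereas most genes from KRT80 downwards overlapped their neighbours.

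Below these 5 genes, KRT81 reached 22.5 to 167.4 CPM per kb and was above KRT80, a type II keratin of stratified epithelia, in 6 of 6 libraries. From KRT80 down the order was less firm. KRT80 was above KRT13, KRT13 above KRT74, KRT74 above KRT71, KRT71 above KRT7, KRT7 above KRT15 and KRT15 above KRT10 in only 4 of 6 libraries each. The intestinal keratin KRT20 was among the lowest tested, with 10, 19 and 11 counts in GFP replicates 1, 2 and 3 and 10, 9 and 11 in POU5F1B replicates 1, 2 and 3. Its levels overlapped between the groups, with a log2 fold change of -0.31 ± 0.35 (SE).

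The partners of some of these genes were nearly absent. KRT14, the usual type I partner of KRT5, had 0 counts in all 3 GFP libraries and 5, 2 and 0 in POU5F1B replicates 1, 2 and 3, while KRT5 had 12754 to 29295. KRT1, the type II partner of KRT10, had at most 1 count in a library, against 163 to 306 for KRT10. Over all members, however, the types were nearly balanced per length. Type II keratins summed to 2960 ± 191 CPM per kb in GFP cells and 2935 ± 343 in POU5F1B cells, and type I keratins to 2871 ± 435 and 3222 ± 64.5 (SD, n = 3). The ratio of type II to type I was 1.04 ± 0.10 and 0.910 ± 0.089, with overlapping libraries.

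Markers of other cell types were read alongside, since KRT5 and KRT13 are not typical of colon. The keratinocyte list (LORICRIN, FLG, IVL, CDSN, KRTDAP, DSG1 and SPRR2A) summed to 0.152 to 0.607 CPM in the GFP libraries and 0.249 to 0.555 CPM in the POU5F1B libraries, and 3 of its 7 genes (LORICRIN, FLG and SPRR2A) were at 0 throughout. TP63, the defining transcription factor of basal squamous cells, had no count in any library. The colon epithelium list (EPCAM, CDH1, CDX2, VIL1, CDH17 and ELF3) summed to 181.2, 162 and 847.8 CPM in GFP replicates 1, 2 and 3 and to 565.8, 558.4 and 515.3 CPM in POU5F1B replicates 1, 2 and 3. Of this list CDH17 was at 0 in GFP replicates 1 and 2 and POU5F1B replicate 1. The sum was highest in GFP replicate 3, through EPCAM and VIL1, while ELF3 was lowest there. CDH1, which encodes E-cadherin, had 33.6, 30.1 and 72.5 CPM in GFP replicates 1, 2 and 3 and 163.7, 158.3 and 98.1 CPM in POU5F1B replicates 1, 2 and 3. Its groups did not overlap, with a log2 fold change of 1.72 ± 0.36 (SE; unadjusted p = 0.00225 and adjusted p = 0.207, limma voom). Of the other tested members of this list, ELF3 was also higher without overlap (background 10.2% of all tested genes). EPCAM, VIL1 and CDX2 overlapped between the groups, with voom log2 fold changes of 0.92, 0.51 and -0.32. With edgeR VIL1 was -0.37. DESeq2 gave CDH1 a log2 fold change of 1.64 (DESeq2 adjusted p = 0.00292). With DESeq2, 0.581% of all tested genes were higher at an adjusted p under 0.05 and a fold above 2. The fibroblast list (COL1A1, COL1A2, DCN, LUM and PDGFRB) summed to 171.1, 148.2 and 27.3 CPM in the GFP and 15.5, 13.4 and 22.5 CPM in the POU5F1B libraries. COL1A1 was the highest of the list in the GFP libraries, at 141.4, 118.1 and 16.8 CPM, and PDGFRB in the POU5F1B libraries, at 8.71, 7.68 and 12.5 CPM, while LUM and DCN were at 0 in GFP replicates 1 and 2 and POU5F1B replicates 1 and 2. The COL1A1 groups did not overlap, with a log2 fold change of -3.22 ± 1.09 (SE; adjusted p = 0.340, limma voom). DESeq2 gave COL1A1 -3.68 (DESeq2 adjusted p = 9.32e-06), where 1.04% of all tested genes were lower at an adjusted p under 0.05 and a fold above 2. The haematopoietic list (PTPRC, CD3E, CD68 and LYZ), of which 1 of 4 genes was at 0 in every library, reached 0.912 to 1.56 CPM in GFP libraries against 1.85 to 4.24 CPM in POU5F1B libraries. Most of this was LYZ alone, at 1.18, 0.912 and 1.39 CPM in GFP and 1.88, 1.85 and 3.99 CPM in POU5F1B libraries. The 2 endothelial genes found, VWF and CDH5, reached 1.21 to 5.97 and 2.57 to 6.52 CPM. Most of that was VWF, with CDH5 at 0 to 2 counts per library. The part of these differences in the keratin results was not tested, and in bulk RNA fewer cells of a type cannot be told apart from less RNA per cell.

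To ask which keratins differed when POU5F1B was overexpressed, the libraries were compared gene by gene with limma voom, fitted over 14286 genes with Benjamini-Hochberg adjustment over all of them. None of the 23 tested keratins passed the threshold of an adjusted p under 0.05 with a fold change above 2, and neither did any other gene (0%). With edgeR, 0 of 14286 genes passed. DESeq2 called 232 genes (1.62%) and none of the keratins (background 0.581% of genes higher and 1.04% lower). At an unadjusted p under 0.05 with voom there were 1698 genes (11.9%) and among them 3 keratins, KRT13 and KRT15 higher (background 6.07% of all tested genes) and KRT31 lower (background 5.82%) in POU5F1B cells. With edgeR these were joined by KRT86 (4 of 23, background 12.04%). With DESeq2 they were KRT13, KRT15, KRT81 and KRT86 (4 of 23, background 13.5%), without KRT31. KRT31 also lost this p with upper quartile scaling, total counts, no filter and the replicate number as a block. The count was 13 of 23 with sample quality weights (background 40.1%), 13 of 23 with replicates 1 and 2 only (background 40.2%) and 5 of 23 with the block (background 11.9%). Among the tested keratins the groups did not overlap for KRT15 (higher, background 10.2%) and KRT31 (lower, background 9.21%). Of the tested keratins 15 were higher and 8 lower, with a median log2 fold change of 0.12, against -0.02 over all tested genes.

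**Figure D2:**
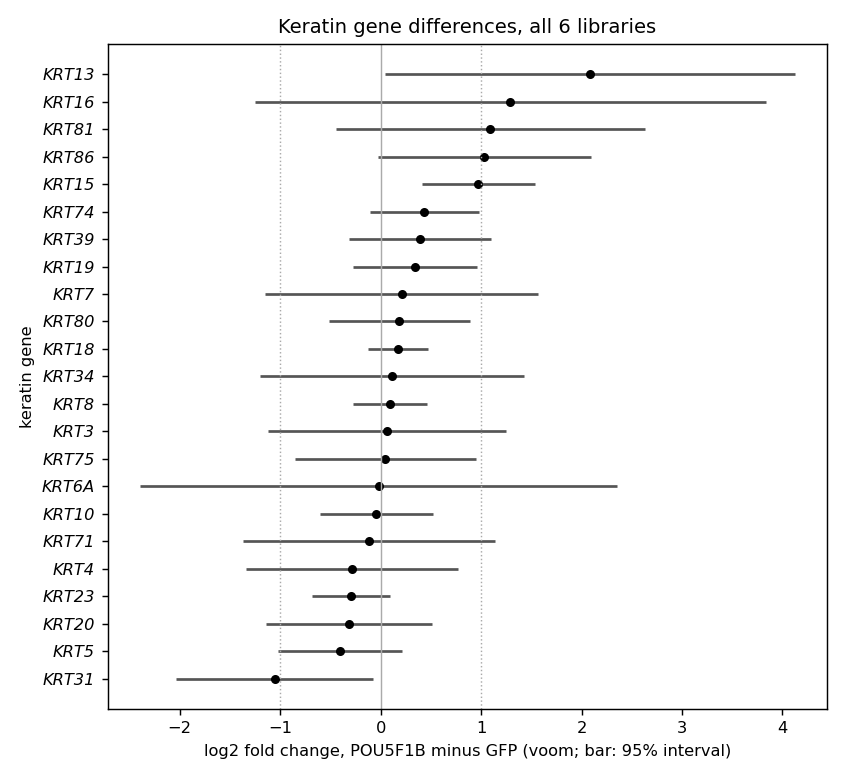
Log2 fold change, POU5F1B over GFP, of the 23 tested keratin genes from limma voom with all 6 libraries; points are estimates and bars 95% confidence intervals. KRT13 and KRT15 lay above 0 and KRT31 below 0 with intervals that did not cross it, and KRT6A, KRT16 and KRT13 had among the widest intervals.

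The simple epithelial pair, KRT8 (chr12:53290971-53343738, GRCh37) and KRT18 (chr12:53342655-53346690), overlapped between the groups and did not pass with limma voom. KRT8 had 3176, 2989 and 4235 CPM in GFP replicates 1, 2 and 3 and 3748, 3250 and 4017 CPM in POU5F1B replicates 1, 2 and 3. KRT18 had 3171, 2911 and 3886 CPM in the GFP libraries and 3605, 3611 and 3957 CPM in the POU5F1B libraries. For both genes replicate 3 was the highest library of each group. The log2 fold change was 0.10 for KRT8 (95% interval -0.27 to 0.47, limma voom adjusted p = 0.842) and 0.17 for KRT18 (-0.12 to 0.47, limma voom adjusted p = 0.614). With replicates 1 and 2 only KRT18 was 0.24 (limma voom adjusted p = 0.00852) and KRT8 0.17 (limma voom adjusted p = 0.0880). With sample quality weights on all 6 libraries KRT18 was 0.27 (limma voom adjusted p = 0.0141) and KRT8 0.24 (limma voom adjusted p = 0.0474), both far below a 2-fold change.

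KRT19, which has no tail domain and is made in ducts and intestine, had 341.7, 298.9 and 590.7 CPM in the GFP libraries and 570.1, 492.4 and 434.9 CPM in the POU5F1B libraries. GFP replicate 3 was the highest of all, so the groups overlapped and the log2 fold change of 0.34 ± 0.26 (SE) did not pass the test (limma voom adjusted p = 0.639). With replicates 1 and 2 only it was 0.72 ± 0.09 (SE; adjusted p = 0.000113, limma voom), below a 2-fold change. KRT23 had 496.4, 437.7 and 343.6 CPM in GFP libraries against 374.1, 360.4 and 303 CPM in POU5F1B libraries. Its groups overlapped through GFP replicate 3 alone, and the log2 fold change was -0.29 ± 0.16 (SE; adjusted p = 0.521, limma voom), and -0.36 with replicates 1 and 2 only (limma voom adjusted p = 0.00548). KRT7, a type II keratin of ducts and glands, had 20.8, 21.8 and 6.94 CPM in GFP libraries against 24.5, 23.4 and 8.80 CPM in POU5F1B libraries. The replicate 3 library was the lowest in each group, and the log2 fold change of 0.21 ± 0.57 (SE) was smaller than its error.

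Among stratified epithelial members, KRT15 (chr17:39669997-39678781, GRCh37), a type I keratin of basal cells and of the hair follicle bulge, had the smallest p-value of the keratins. It had 11.3, 9.13 and 11.4 CPM in GFP replicates 1, 2 and 3 and 23.0, 24.6 and 15.9 CPM in POU5F1B replicates 1, 2 and 3. Every POU5F1B library was above every GFP library. The log2 fold change was 0.97 ± 0.24 (SE; unadjusted p = 0.0048 and adjusted p = 0.236, limma voom). DESeq2 gave an adjusted p of 0.0102 at a log2 fold change of 0.996, just short of the fold limit (background 2.88% of genes at that adjusted p and any fold). Without GFP replicate 3 the gene passed, at 1.02 (limma voom adjusted p = 0.0398), where 595 of 14286 genes passed, 198 of them higher. With any other library left out it did not pass (limma voom adjusted p = 0.116 to 0.933). With replicates 1 and 2 only it passed at 1.21 (limma voom adjusted p = 0.000213, background 3.21% of genes higher).

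KRT13 (chr17:39657233-39661957), a type I keratin of moist stratified epithelia, showed the largest fold change of the tested keratins with all 6 libraries. It had 25.1, 24.8 and 4.68 CPM in the GFP libraries and 105.0, 95.3 and 23.7 CPM in the POU5F1B libraries. POU5F1B replicates 1 and 2 were above every GFP library, but POU5F1B replicate 3 lay just below GFP replicates 1 and 2, so the groups overlapped. The log2 fold change was 2.08 ± 0.86 (SE; unadjusted p = 0.0464 and adjusted p = 0.411, limma voom). With replicates 1 and 2 only it was 1.99 ± 0.12 (SE; adjusted p = 2.12e-07, limma voom). KRT4, the type II partner of KRT13, had 8.75, 6.31 and 3.73 CPM in the GFP libraries and 3.93, 3.52 and 8.22 CPM in the POU5F1B libraries. Its groups overlapped, with a log2 fold change of -0.28 ± 0.44 (SE), and of -0.99 (limma voom adjusted p = 0.0129) with replicates 1 and 2 only.

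KRT5 (chr12:52908359-52914314) had 2463, 2037 and 1439 CPM in GFP libraries against 1319, 1180 and 2001 CPM in POU5F1B libraries. Replicates 1 and 2 were lower in POU5F1B cells, whereas replicate 3 was higher, so that the groups overlapped. The log2 fold change was -0.41 ± 0.26 (SE; adjusted p = 0.580, limma voom) with all libraries and -0.85 ± 0.09 (SE; adjusted p = 2.32e-05, limma voom) with replicates 1 and 2 only. The inner root sheath keratin KRT71 likewise had its lowest GFP value and its highest POU5F1B value in replicate 3, with 41.8, 33.5 and 10.5 CPM in GFP libraries against 17.5, 21.8 and 31.3 CPM in POU5F1B libraries. Its log2 fold change was -0.12 ± 0.53 (SE), and -0.95 (limma voom adjusted p = 0.000842) with replicates 1 and 2 only. KRT74, which neighbours KRT71 and is also made in the inner root sheath, had 37.1, 35.5 and 22.3 CPM in GFP libraries against 43.7, 35.8 and 46.7 CPM in POU5F1B libraries. The groups overlapped only between GFP replicate 1 and POU5F1B replicate 2, with a log2 fold change of 0.43 ± 0.23 (SE; adjusted p = 0.5003, limma voom).

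The remaining stratified members with at least 10 CPM on average were KRT80 and KRT10. KRT80 had 157.4, 140.0 and 81.8 CPM in GFP libraries against 178.6, 143.1 and 104.6 CPM in POU5F1B libraries. KRT10, the type I keratin of skin layers above the basal one, had 20.7, 23.3 and 14.1 CPM in GFP libraries against 17.9, 21.8 and 16.4 CPM in POU5F1B libraries. Both had their lowest value in replicate 3 of each group, and neither log2 fold change, 0.19 ± 0.30 for KRT80 and -0.04 ± 0.24 for KRT10 (SE), exceeded its error.

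KRT6A, KRT16 and KRT17, which are known for their induction in wounded or hyperproliferating skin, were highest in the replicate 3 library of each group. KRT6A had 2.36, 1.90 and 13.9 CPM in GFP libraries against 2.36, 1.76 and 13.3 CPM in POU5F1B libraries. KRT16 had 9, 1 and 35 counts in GFP and 15, 12 and 31 counts in POU5F1B libraries. The other libraries of both groups lay well below replicate 3 for KRT6A. The log2 fold changes of KRT6A (-0.02 ± 1.00, SE) and KRT16 (1.29 ± 1.07, SE) had errors near or above 1 on that scale. KRT17, below the filter, had 4, 2 and 31 counts in GFP and 4, 0 and 13 in POU5F1B libraries, and KRT6B 1, 1 and 13 and then 1, 0 and 3. KRT6C, 97.9% identical to KRT6A in coding sequence, had 24, 25 and 7 counts in GFP and 8, 5 and 6 in POU5F1B libraries, an order unlike that of KRT6A.

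**Figure D3:**
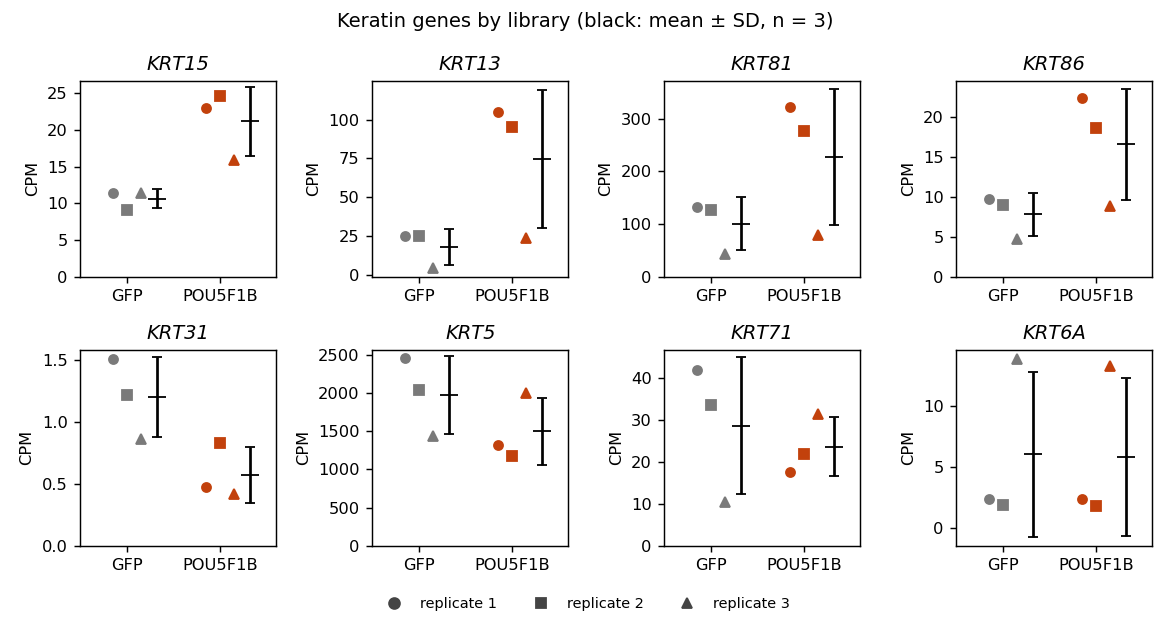
CPM of 8 keratin genes in each library (dots, 3 GFP and 3 POU5F1B), with the mean ± SD of each group; each panel has its own linear axis. KRT15 and KRT31 are the tested members whose groups did not overlap, and KRT6A shows 1 library of each group, replicate 3, at 13.9 and 13.3 CPM and the others at 1.76 to 2.36 CPM.

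Hair shaft keratins were led by KRT81 and KRT86, whose coding sequences are close, as given above. KRT81 had 132.0, 126.5 and 43.4 CPM in GFP replicates 1, 2 and 3 and 322.9, 277.0 and 79.9 CPM in POU5F1B replicates 1, 2 and 3. KRT86 had 9.76, 8.97 and 4.77 CPM in the GFP libraries and 22.4, 18.6 and 8.80 CPM in the POU5F1B libraries. For both genes POU5F1B replicates 1 and 2 were above every GFP library, while POU5F1B replicate 3 was above GFP replicate 3 alone, so the groups overlapped. The log2 fold change was 1.09 ± 0.65 (SE; adjusted p = 0.550, limma voom) for KRT81 and 1.03 ± 0.45 (SE; adjusted p = 0.427, limma voom) for KRT86. Since reads of the pair can be hard to tell apart, their counts were also summed, which gave 1.09 (limma voom adjusted p = 0.533). KRT81 had 11804 counts in total and KRT86 881, so the sum mostly repeats KRT81. It cannot show whether KRT86 differed by itself. With replicates 1 and 2 only both genes passed, KRT81 at 1.2 (limma voom adjusted p = 2.34e-06) and KRT86 at 1.12 (limma voom adjusted p = 0.000551). In that setting 3.21% of all tested genes passed as higher.

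KRT31 (chr17:39549973-39553860), a type I hair keratin, was near the detection limit. It had 18, 16 and 10 counts in GFP and 6, 9 and 5 counts in POU5F1B libraries. All POU5F1B libraries were below all GFP libraries, with a log2 fold change of -1.05 ± 0.41 (SE; unadjusted p = 0.0389 and adjusted p = 0.388, limma voom). KRT83, below the filter, also had groups that did not overlap in CPM, with 22, 10 and 9 counts in GFP and 4, 5 and 8 in POU5F1B libraries. KRT9, a type I keratin of palm and sole skin, did not overlap in CPM either, but was higher in POU5F1B cells. It had 0, 1 and 0 counts in GFP and 2, 1 and 1 in POU5F1B libraries, all under the floor. GFP replicate 2 had the same count as POU5F1B replicates 2 and 3, so only the library scaling separated them. KRT34 had 4 to 15 counts and KRT39 24 to 55 counts per library, and both overlapped between the groups, with log2 fold changes of 0.12 ± 0.55 and 0.39 ± 0.30 (SE). KRT38, KRT36 and KRT37 were below the filter, with totals of 51, 14 and 10 counts over the 6 libraries. Over all 17 hair shaft members the CPM summed to 150.7, 143.3 and 54.3 in GFP and 352.8, 303 and 94.9 in POU5F1B libraries, most of it KRT81.

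The last tested members were KRT3, a type II keratin of the cornea, and KRT75, a type II keratin of the follicle's companion layer. KRT3 had 27, 27 and 9 counts in GFP and 14, 20 and 26 in POU5F1B libraries, and KRT75 had 28, 52 and 40 and then 57, 42 and 25. Both overlapped between the groups, with log2 fold changes of 0.06 ± 0.50 and 0.05 ± 0.38 (SE). Below the filter KRT79 and KRT78, type II keratins of stratified epithelia, had totals of 22 and 12 counts. A further 15 members had 1 to 9 counts in total. Of these only KRT14, KRT2 and KRT40 reached at least 5 counts in a library. KRT14 and KRT2 had 5 in POU5F1B replicate 1, and KRT40 had 6 in GFP replicate 3.

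The summed keratin level differed little between the groups. All 55 members together had 9996 ± 812 CPM in the GFP group and 10350 ± 755 CPM in the POU5F1B group (SD, n = 3), a difference smaller than the spread within either group. Simple epithelial members made up 76.2 ± 7.2% of it in GFP and 79.8 ± 1.1% in POU5F1B cells, and stratified members 22.0 ± 6.4% and 17.02 ± 2.38%. Hair shaft members made up 1.19 ± 0.59% and 2.47 ± 1.40%. GFP replicate 3 stood at the edge of these ranges, with 84.5% simple and 14.7% stratified keratin.

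**Figure D4:**
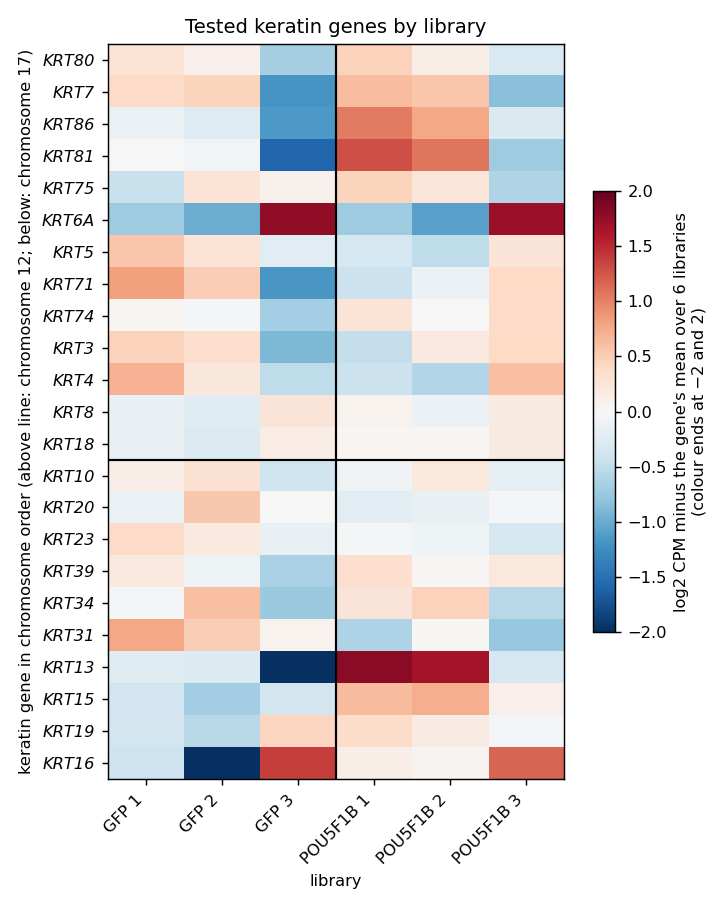
Log2 CPM of the tested keratin genes in each library, as the difference from the gene's mean over the 6 libraries, with genes in chromosome order (chromosome 12 above the line, chromosome 17 below). KRT80, KRT7, KRT81 and KRT86, which lie at the start of the chromosome 12 cluster, were lowest in replicate 3 of each group, and KRT6A, further along the cluster, was highest there.

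KRT80, KRT7, KRT86 and KRT81 lie at chr12:52562780-52702947 (GRCh37), and all 4 had their lowest value in replicate 3 of each group. This order of libraries was found for 9 of the 23 tested keratins (KRT7, KRT10, KRT13, KRT23, KRT31, KRT34, KRT80, KRT81 and KRT86; background 18.0%). Replicate 3 was the highest in each group for KRT6A, KRT8, KRT16 and KRT18 (4 of 23, background 19.5%). It was the lowest in GFP but the highest in POU5F1B cells for KRT3, KRT4, KRT5, KRT71 and KRT74 (5 of 23, background 16.0%), all of which are type II genes of chromosome 12. The reverse was seen for KRT15 and KRT19, type I neighbours on chromosome 17 (2 of 23, background 18.5%).

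With replicates 1 and 2 only, 5 of the 23 keratins passed the threshold, all higher in POU5F1B cells, namely KRT13, KRT15, KRT16, KRT81 and KRT86 (background 8.36% of genes, 3.21% higher and 5.15% lower). KRT16 rested on 9 and 1 counts in the GFP libraries. At an adjusted p under 0.05 and any fold there were 7 higher and 4 lower (background 29.7% in either direction), and the 4 were KRT4, KRT5, KRT23 and KRT71. At an adjusted p under 0.05 and any fold, sample quality weights over all 6 libraries gave 8 keratins higher and 4 lower (background 27.8% in either direction). They gave 6 keratins past the threshold, the same 5 and KRT31, which was lower (background 7.54% of genes, 3.14% higher and 4.40% lower). For KRT13, KRT81 and KRT86 the log2 fold changes were 2.08, 1.09 and 1.03 with all libraries and 1.99, 1.2 and 1.12 with replicates 1 and 2 only, while the SE went from 0.86, 0.65 and 0.45 to 0.12, 0.09 and 0.18.

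Genes around the keratins were read from lists chosen from general knowledge. The list of other intermediate filament genes had 8 tested members (of 14 found) and a median log2 fold change of 0.03. None of the 8 had an unadjusted p under 0.05 with limma voom on all 6 libraries. With sample quality weights 1 of 8, lower, did (background 40.1% of all tested genes). With replicates 1 and 2 only it was also 1 of 8, lower (background 40.2%). VIM, the filament of mesenchymal cells, had 655.7, 630.1 and 459.0 CPM in GFP libraries against 504.3, 516.8 and 528.4 CPM in POU5F1B libraries, with overlapping groups. The list of keratin anchoring and linker proteins, such as desmoplakin and plectin, had 14 tested members and a median log2 fold change of 0.12. None of them had an unadjusted p under 0.05 with limma voom on all 6 libraries, edgeR or DESeq2. With sample quality weights 5 of 14, all higher, did (background 40.1% of all tested genes). With replicates 1 and 2 only it was also 5 of 14, all higher (background 40.2%). DSP, which encodes desmoplakin, had 682.3 CPM in GFP replicate 3 and 204.0 to 312.5 CPM elsewhere.

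Of 18 transcription factors known for keratin gene control 13 were tested, with a median log2 fold change of 0.56, and none passed the threshold with limma voom. At an unadjusted p under 0.05 with voom, ELF3, GRHL1 and OVOL2 were higher (background 6.07%) and EHF was lower (background 5.82%). ELF3, an ETS factor of epithelial differentiation, had 10.3, 9.20 and 8.93 CPM in GFP libraries against 23.3, 17.6 and 16.2 CPM in POU5F1B libraries. The groups did not overlap, with a log2 fold change of 0.99 ± 0.21 (SE; unadjusted p = 0.00229 and adjusted p = 0.207, limma voom). EHF, another epithelial ETS factor, had 102, 78.8 and 180.5 CPM in GFP libraries against 25.0, 23.8 and 53.4 CPM in POU5F1B libraries. Its groups did not overlap either, with a log2 fold change of -1.83 ± 0.42 (SE; unadjusted p = 0.00371 and adjusted p = 0.227, limma voom). GRHL1 and OVOL2, at log2 fold changes of 0.84 ± 0.29 and 1.04 ± 0.43 (SE), had groups that overlapped through GFP replicate 3 (limma voom adjusted p = 0.349 and 0.406). DESeq2 called ELF3 (log2 fold change 1.01, adjusted p = 0.00366) and EHF (-1.82, adjusted p = 0.00243) past the threshold (background 1.62% of all tested genes). Sample quality weights (background 7.54%) and replicates 1 and 2 only (background 8.36%) each called all 4 of these genes. All 4 had been picked by their voom p in these same libraries. ELF3 is also in the colon epithelium list.

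Promoters were read for the members with an entry in the RefSeq table used here, 12 of the 23 tested, taking the 250 bases before the annotated start (GRCh38.p14). KRT13, KRT15, KRT16, KRT81 and KRT86, the members past the threshold with replicates 1 and 2 only, had no entry. Their promoters were therefore not searched for any motif. The hexamer TATAAA, searched on both strands, was in 6 of the 12, against 10.7% of 35116 promoters. The GC box GGGCGG was in 1 of 12 (42.6% of all), while the AP-1 motif TGANTCA (6.57% of all) and the octamer ATGCAAAT, the known site of POU factors (1.63% of all), had no match in these windows. A match is only a description of letters. KRT4, KRT5, KRT71 and KRT31 are shown, KRT4, KRT5 and KRT71 since they were lower with replicates 1 and 2 only, and KRT31 since its groups did not overlap. Capitals mark TATAAA. The windows lie at chr12:52814117-52814366 for KRT4, at chr12:52520395-52520644 for KRT5, at chr12:52553146-52553395 for KRT71 and at chr17:41397609-41397858 for KRT31, all on the minus strand.

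KRT4: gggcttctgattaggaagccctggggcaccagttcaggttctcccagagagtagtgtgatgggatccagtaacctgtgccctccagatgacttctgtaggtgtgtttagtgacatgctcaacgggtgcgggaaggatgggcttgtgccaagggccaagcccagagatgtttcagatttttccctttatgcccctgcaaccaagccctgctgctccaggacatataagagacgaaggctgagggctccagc

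KRT5: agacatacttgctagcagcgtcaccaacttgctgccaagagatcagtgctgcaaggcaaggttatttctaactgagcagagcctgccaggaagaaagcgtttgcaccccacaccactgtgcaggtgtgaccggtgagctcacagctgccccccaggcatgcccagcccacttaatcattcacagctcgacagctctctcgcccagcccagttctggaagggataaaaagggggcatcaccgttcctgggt

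KRT71: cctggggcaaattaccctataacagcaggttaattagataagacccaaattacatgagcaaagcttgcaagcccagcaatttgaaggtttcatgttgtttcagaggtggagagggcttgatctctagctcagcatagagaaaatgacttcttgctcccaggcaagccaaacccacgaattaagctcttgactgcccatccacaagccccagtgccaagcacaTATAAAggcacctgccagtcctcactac

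KRT31: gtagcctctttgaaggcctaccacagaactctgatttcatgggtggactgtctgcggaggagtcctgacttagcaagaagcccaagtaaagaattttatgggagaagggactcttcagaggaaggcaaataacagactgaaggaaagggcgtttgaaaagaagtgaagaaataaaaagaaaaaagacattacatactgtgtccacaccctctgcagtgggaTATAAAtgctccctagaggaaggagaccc

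The hexamer began 28 bases before the start in KRT71 and 29 bases before it in KRT31, and KRT4 and KRT5 had none in this window.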

How the data were processed

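RNA was sequenced from 3 GFP and 3 POU5F1B libraries, assigned to groups by their titles. The authors deposited a table of raw read counts per gene for each library. To make them, per the study's methods, reads of a TruSeq stranded mRNA library were mapped to hg19 with HISAT2 and counted with featureCounts on an annotation of genes and transposable elements, keeping uniquely mapped reads. The strand setting and annotation release are not given in the sources used here.

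Of the genes counted, 14286 passed filterByExpr (edgeR 4.0.16), and libraries were scaled by TMM. The test was voom with limma 3.58.1 in R 4.3.3, two-sided, without a block, with Benjamini-Hochberg adjustment; a gene passed at an adjusted p under 0.05 and a fold change above 2. CPM are counts scaled to TMM-adjusted library totals. Alternatives were edgeR's quasi-likelihood test, DESeq2 1.42.0, sample quality weights, other scalings and filters, the replicate number as a block, leaving out each library, replicates 1 and 2 only, and pseudogene counts added to KRT8, KRT18 and KRT19. The sum of KRT81 and KRT86 was chosen after seeing the data. The scripts were tested on simulated data.

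The members and lists were chosen with earlier results of these data known. Named were POU5F1B, every tested keratin, keratins below the filter with at least 10 counts in total, and list members with an unadjusted p under 0.05; members averaging at least 10 CPM are given in every library. KRT1, KRT2, KRT9, KRT14, KRT40, the members at 0, VIM, DSP and the marker genes named individually were chosen after their values were seen. No 2 libraries agreed within sampling noise (lowest chi-square 4.21 per degree of freedom). Identity and shared windows were read from GRCh37 with a GENCODE annotation mapped to it, and promoters from RefSeq.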

Additional observations from a re-analysis of the deposited data

How the results depend on the processing

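The number of genes past the threshold was 0 with limma voom, 232 with DESeq2, 1077 with sample quality weights, 4 without a filter, 1194 with replicates 1 and 2 only, and 0 to 595 when a library was left out, the highest without GFP replicate 3 and 5 without POU5F1B replicate 3. Keratins past the threshold numbered 6 with quality weights (background 7.54% of all tested genes), 5 with replicates 1 and 2 only (background 8.36%), and 0 to 1 when a library was left out. The 1 was KRT15 without GFP replicate 3, where 595 of 14286 genes passed. Keratins with an unadjusted p under 0.05 numbered 13 with quality weights (background 40.1% of all tested genes), 13 with replicates 1 and 2 only (background 40.2%), and 1 to 9 when a library was left out, 9 without GFP replicate 3 (background 29.35% of all tested genes) and 1 without each of GFP replicate 1, GFP replicate 2 and POU5F1B replicate 1 (background 5.19 to 9.23%). The cause was not tested. The replicate numbers did not meet the rule for pairing, since the deviations of same-numbered libraries correlated at 0.242, 0.0883 and 0.165. With the number as a block 1 gene passed, no keratin did, and 5 keratins had an unadjusted p under 0.05 (background 11.9%). These were KRT13, KRT15, KRT81 and KRT86, higher, and KRT23, lower. The smallest p was that of KRT13 (unadjusted p = 6.8e-05 and adjusted p = 0.128, limma voom with the block).

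Over single genes, 374 values kept direction and call, 25 passed under the alternative and 32 reversed. With quality weights KRT6A was 0.35, KRT3 -0.58 and KRT34 -0.15 on the log2 scale. KRT3 was -0.0066 with edgeR, -0.011 with DESeq2 and -0.61 with replicates 1 and 2 only. With upper quartile scaling KRT6A was 0.0014 and KRT10 0.013, and with total counts KRT10 was 0.0033. Leaving out a library moved KRT80 from -0.11 to 0.40, KRT7 from -0.32 to 0.71, KRT75 from -0.18 to 0.39, KRT6A from -0.92 to 0.85, KRT71 from -0.72 to 0.25, KRT3 from -0.41 to 0.36, KRT10 from -0.26 to 0.13, KRT34 from -0.30 to 0.54 and KRT16 from -0.0060 to 2.39. These genes have no direction that holds in every setting. The log2 fold changes of KRT13, KRT15, KRT81 and KRT86 stayed above 0 and that of KRT31 below 0 in every setting that tested them. Those of KRT8, KRT18, KRT19, KRT39 and KRT74 also stayed above 0, and those of KRT4, KRT5, KRT20 and KRT23 below 0. A constant sign was therefore not particular to the members with small p-values. The summed keratin level was 9848 to 10030 CPM in GFP and 10390 to 10500 CPM in POU5F1B cells under the alternatives, within the spread between replicates.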
